A study of Mus musculus with 189 samples.

Results

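The 32-cell mouse embryo is an early blastocyst in which blastomeres are being divided between the inner cell mass (ICM), which gives rise to the fetus and the yolk sac, and the trophectoderm (TE), the outer epithelium that forms the placenta. The samples compared here were ICM-like and TE-like blastomere samples of this stage. They were chosen by their own expression values. Of the 52 blastomere samples of 32-cell embryos, 2 were left out by rule, and each of the other 50 was given a score. The score was the mean of 8 ICM genes minus the mean of 8 TE genes. The ICM genes were Esrrb, Klf2, Klf4, Pdgfra, Pecam1, Pou5f1, Sox2 and Trim28. The TE genes were Cdx2, Dppa1, Gata3, Id2, Krt8, Lats2, Tead4 and Tspan8. The study tied Trim28 and Lats2 to these sets by correlation on samples that include these, and gave the others as known markers. It defined its lineage gene sets by clustering the same data. The score was therefore not fully independent of the samples it sorted. The 40 samples with a score above 0 were called ICM-like and the 10 samples with a score below -2 TE-like, and 0 samples lay between. These 50 samples belong to a series of 189.

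The series measured 192 genes, chiefly chromatin modifiers and developmental regulators, by quantitative PCR on microfluidic chips in oocytes and preimplantation embryos. Females were the F1 offspring of C57BL/6 and DBA/2 mice, embryos had C57BL6 fathers, and all embryos were untreated and cultured in KSOMaa medium under low oxygen. The ICM-like class held 26 single blastomeres and 14 groups of up to 7 blastomeres, from 7 embryos. The TE-like class held 6 single blastomeres and 4 groups of up to 5, from 4 embryos. Embryo 1 gave 8 ICM-like and 4 TE-like samples, embryo 8 gave 8 and 2, embryo 9 gave 7 and 2, and embryo 13 gave 4 and 2. Embryos 10, 11 and 12 gave 5, 3 and 5 ICM-like samples and 0 TE-like samples. The position of a blastomere in its embryo was not recorded in the labels. Cells that a group contained cannot be told apart in its value, and fewer cells of a type and less RNA per cell cannot be told apart either. The labels of 1 single blastomere and 1 pair of embryo 8, both ICM-like, share blastomere number 12. Over 127 genes detected in both, the median absolute difference between them was 0.53, within the range of 0.47 to 1.12 over the 28 pairs of ICM-like samples of that embryo.

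The choice between ICM and TE follows cell position and polarity. In outer, polarised cells Hippo signalling is low, and Yap1 acts with Tead4 in the nucleus to switch on Cdx2 and Gata3, whereas inner cells keep Sox2 and Pou5f1. Within the ICM, epiblast precursors make Nanog and the ligand Fgf4, and primitive endoderm precursors respond to it through FGF receptors and turn on Gata6, Sox17 and Pdgfra. DNA methylation, its removal by Tet enzymes, and Polycomb repression are among the chromatin systems being set up again at this time.

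Values throughout are log2 expression, 30 minus the cycle threshold (Ct) relative to the mean of the control genes Hnrnpr, Ssu72 and Ube2e1 in the same sample, so that 1 unit is 1 PCR cycle, or a doubling at full efficiency. Without detection the Ct is 30, and the gene takes a value set by the controls of its sample, on average -12.31 in ICM-like and -13.04 in TE-like samples. Differences that involve undetected samples are therefore given with the number of samples in which the gene was detected. The mean Ct of the control genes ranged from 13.8 to 20.2 with a median of 18.04 in ICM-like samples and from 15.4 to 18.02 with a median of 17.1 in TE-like samples. Of the 156 genes that passed the assay quality control, a median of 26 (range 7 to 36) were undetected in ICM-like samples and 22 (range 15 to 25) in TE-like samples. The part of this difference in sensitivity in the results below was not tested.

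ICM-like scores ran from 0.51 through a median of 7.75 to 11.09 and TE-like scores from -9.16 through a median of -7.61 to -4.26. The ICM-like sample nearest the threshold was blastomere 2 of embryo 9, at 0.51, and the nearest TE-like sample was blastomere 3 of embryo 1, at -4.26. The genes of the score are described here without a test, because they chose the samples. Pdgfra, a receptor tyrosine kinase of the primitive endoderm lineage, was detected in 40 of 40 ICM-like samples (-1.86 to 4.05) and in 2 of 10 TE-like samples. Pecam1, a cell adhesion molecule, was detected in 39 of 40 and 1 of 10 samples. Sox2, a pluripotency factor, was detected in 38 of 40 and 2 of 10 samples, and Esrrb, a nuclear receptor of the pluripotency network, in 39 of 40 and 8 of 10. Pou5f1 was detected in all 50 samples, at 5.52 ± 0.45 (SD, n = 40) in ICM-like and 4.52 ± 0.43 (SD, n = 10) in TE-like samples.

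In the other direction, Cdx2, which specifies the TE, was detected in 24 of 40 ICM-like samples (-16.19 to -0.08) and in 10 of 10 TE-like samples (0.55 to 2.13). Dppa1 was detected in 17 of 40 and 10 of 10 samples, and Gata3, a second TE transcription factor, in 16 of 40 and 10 of 10. Krt8, an epithelial keratin, was detected in every sample, with a median of -3.93 in ICM-like and 1.08 in TE-like samples. The TE genes of the score were highest, among ICM-like samples, in 4 samples of embryo 9, blastomere 2 and groups of 2, 4 and 5 blastomeres. Their ICM gene means were 0.27 in blastomere 2, in which Pecam1 was undetected, and 2.30 to 2.42 in the groups. Their TE gene means were between -0.81 and 0.67, against -9.25 to -1.94 in the other 36 ICM-like samples. These 4 samples had the lowest scores of the ICM-like class, and 3 of them were groups.

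**Figure D1:**
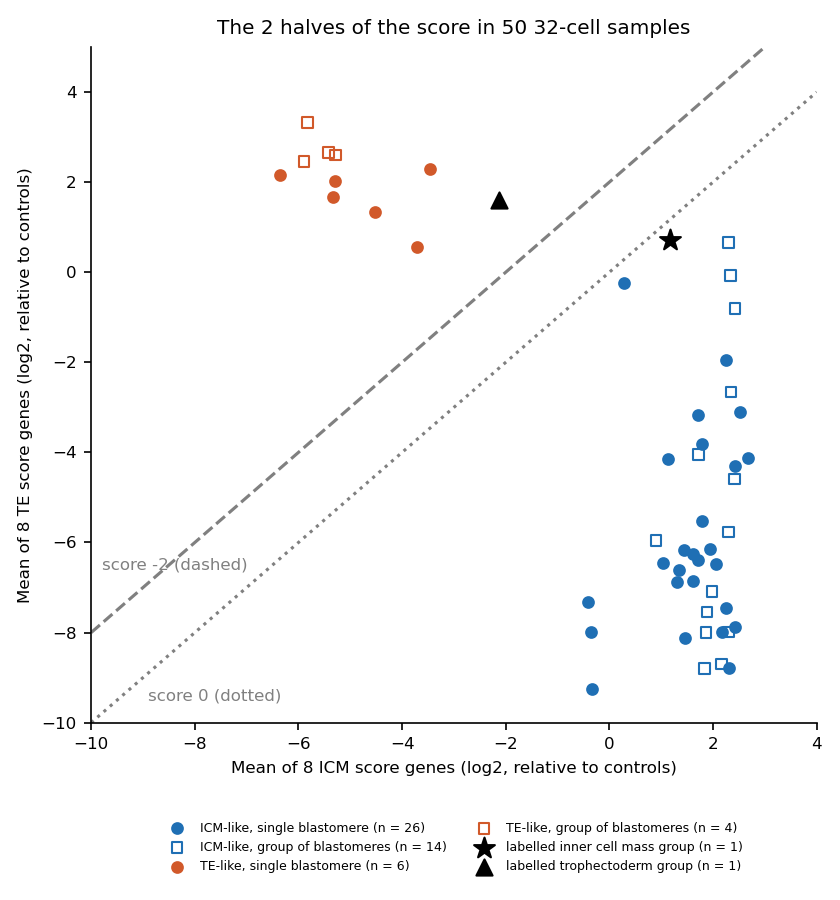
Mean of the 8 TE score genes (vertical axis) against the mean of the 8 ICM score genes (horizontal axis), both log2 relative to the control genes, for 26 single ICM-like blastomeres, 14 ICM-like groups, 6 single TE-like blastomeres, 4 TE-like groups and the 2 labelled groups, with lines at scores of 0 and -2. No blastomere sample lies between the lines, and the 4 samples of embryo 9 with the highest TE genes sit at the upper end of the ICM-like samples, with TE gene means of -0.81 to 0.67.

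Xist and Kdm5d gave a limited check, by sex alone, on the assignment of samples to embryos that the score did not use. Xist, the RNA that silences one X chromosome in female cells, was detected in every sample of embryos 1, 8, 9, 11 and 12 and in 0 samples of embryos 10 and 13. Kdm5d, a Y-linked histone demethylase, was detected in every sample of embryos 10 and 13 and in 0 samples of the others. Within each of embryos 1, 8, 9 and 13 both classes therefore carried the same pattern. Embryos that share a pattern cannot be told apart by it, so an exchange of samples among embryos 1, 8 and 9 would not be seen. Where Xist was detected, its ICM-like minus TE-like difference was -0.61, -0.60 and -0.78 in embryos 1, 8 and 9, and that of Kdm5d was -0.63 in embryo 13. Differences in the other embryos rest on undetected samples alone, so no test of these genes is given.

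The question of which other genes went with the score was put to the 140 genes outside it. Samples were averaged by class within each of the 4 embryos that had both classes (27 ICM-like and 10 TE-like samples), and the 8 means were compared with limma with the embryo as a block and Benjamini-Hochberg adjustment over the 140 genes. At an adjusted p below 0.05, 12 genes were called, 8.57% of those tested, with 6 higher in ICM-like samples (4.29%) and 6 lower (4.29%). Tet1, Ezh1, Scmh1, Prdm14, Fgf4 and Creb3l2 were higher, and Elf5, Phf19, Fgfr2, Dnmt3b and Lrpap1 were among those lower. Over all genes tested, 48.6% had the same sign in each of the 4 embryos. The median difference over all 140 genes was 0.24. At an unadjusted p below 0.05 there were 40 genes (28.6%). A fit of all 7 embryos with the embryo as a random block, which adds the 13 ICM-like samples of embryos 10, 11 and 12, called 46 genes (32.9%), 28 higher (20%) and 18 lower (12.9%), among them all 12. The main fit within embryos was also run with 1 of its 4 embryos left out. It called 0 genes without embryo 1, 9 or 13 and 8 without embryo 8, of which 5 were among the 12. At an unadjusted p below 0.05 it gave between 27 and 38 genes.

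Tet1, which oxidises methylated cytosine, separated the classes completely and was the only 1 of the 140 genes to do so (0.714%). Its level was -2.14, -0.74 and 0.87 (lowest, median and highest) in ICM-like samples and -4.43, -3.52 and -2.83 in TE-like samples. Within the embryos the difference was 3.04, 2.68, 2.80 and 3.60 (embryos 1, 8, 9 and 13), a mean of 3.03 ± 0.26 (SE, 4 embryos; adjusted p = 0.0135), or 8.16-fold. The difference did not rest on undetected samples, since Tet1 was detected in all 50.

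Ezh1, a histone H3K27 methyltransferase of Polycomb repressive complex 2 (PRC2), had levels of -0.91, 1.26 and 2.51 in ICM-like and -2.69, -0.90 and 0.06 in TE-like samples. All but 2 of the 40 ICM-like samples lay above every TE-like sample. The difference was 2.57 ± 0.29 (SE, 4 embryos; adjusted p = 0.0135), or 5.92-fold, with 3.33 in embryo 8 and between 2.29 and 2.33 in the other 3 embryos. Scmh1, a Polycomb group protein, ran from -2.39 through -0.11 to 1.68 in ICM-like and from -4.25 through -1.97 to -1.31 in TE-like samples, and 38 of 40 ICM-like samples lay above every TE-like sample. Its difference was 2.21 ± 0.39 (adjusted p = 0.0429).

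Prdm14, a repressor of differentiation in pluripotent cells and the germ line, was detected in 29 of 40 ICM-like and 1 of 10 TE-like samples. Its level was -12.81, -2.78 and -0.33 in ICM-like samples and -14.62, -12.92 and -3.84 in TE-like samples, so that the classes overlapped through ICM-like samples without signal and 1 TE-like sample with it. The difference was 8.00 ± 1.17 (SE, 4 embryos; adjusted p = 0.0342), and it ranged from 4.08 in embryo 1 to 11.13 in embryo 13. Like Trim28 of the score, Tet1, Ezh1, Scmh1 and Prdm14 are chromatin genes that the study itself added to its ICM set on these samples. The direction of Tet1, Ezh1, Scmh1 and Prdm14 is therefore not independent evidence.

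Creb3l2, a transcription factor anchored in the endoplasmic reticulum, was detected in 30 of 40 ICM-like and 2 of 10 TE-like samples, at low levels. It measured -12.59, -8.12 and -4.58 in ICM-like and -14.62, -12.45 and -9.27 in TE-like samples, and 29 of 40 ICM-like samples exceeded all TE-like samples. The difference was 4.35 ± 0.49 (SE, 4 embryos; adjusted p = 0.0135), and 2.00 with all values below -10 raised to -10 (adjusted p = 0.0150).

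**Figure D2:**
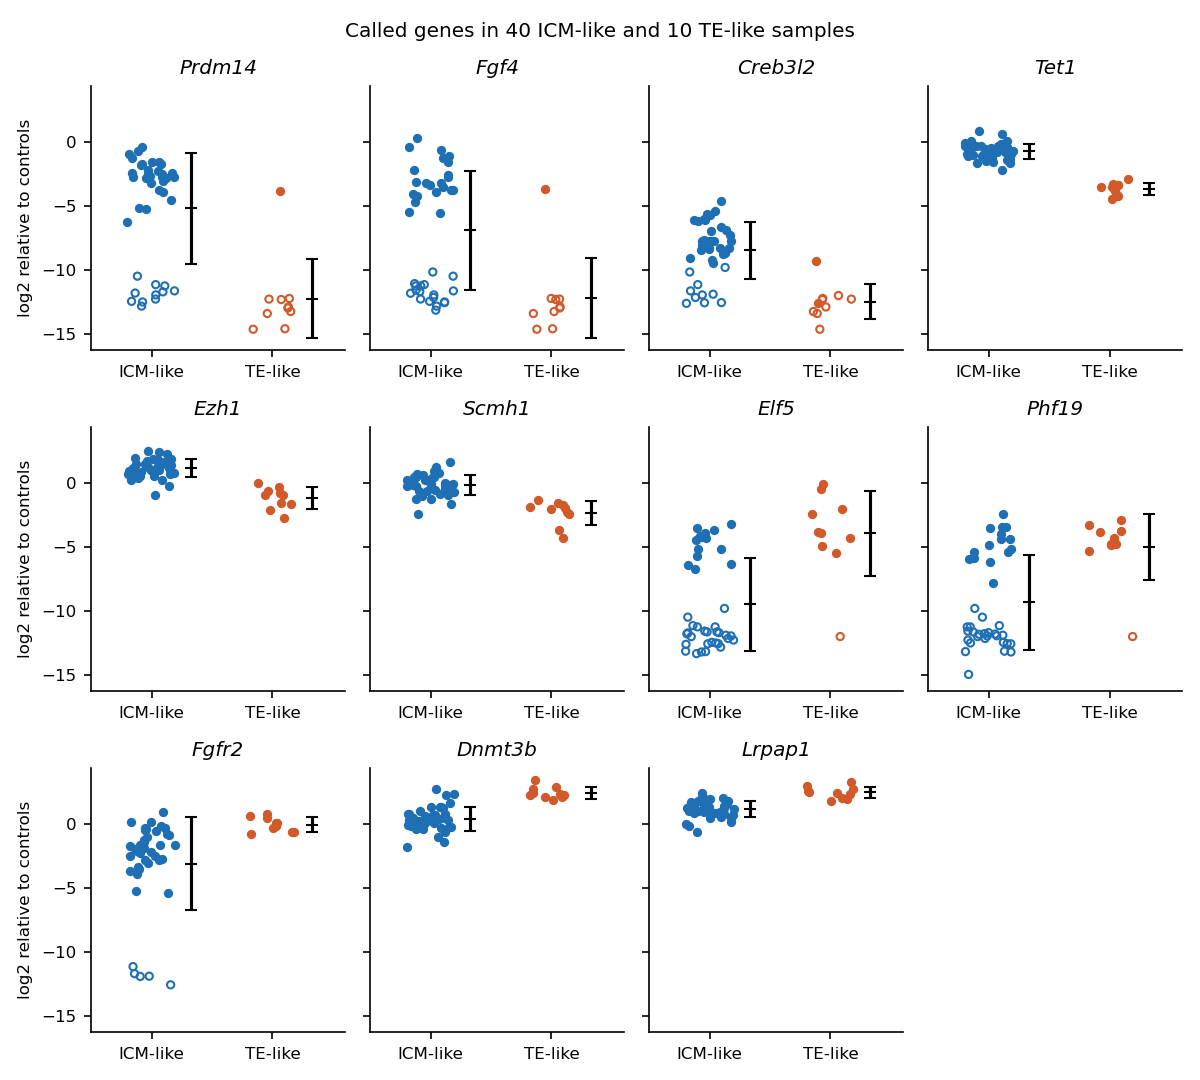
Level of 11 of the 12 called genes (vertical axis, log2 relative to the control genes) in 40 ICM-like and 10 TE-like samples. Filled points are samples in which the gene was detected, open points samples in which it was not, and bars are the mean and SD over samples. Tet1 shows no overlap (-2.14 to 0.87 against -4.43 to -2.83), while Prdm14, Fgf4, Elf5 and Phf19 divide into samples with and without signal.

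The FGF pathway moved in opposite directions for its ligand and one of its receptors. Fgf4, the ligand made by epiblast precursors, was detected in 22 of 40 ICM-like and 1 of 10 TE-like samples, with levels of -13.12, -5.04 and 0.36 against -14.62, -12.92 and -3.66. Its difference was 5.99 ± 1.15 (SE, 4 embryos; adjusted p = 0.0458), and with all values below -10 raised to -10 it was 3.73 with an adjusted p of 0.0566 in limma. Fgfr2, a receptor for FGF ligands that the TE and the primitive endoderm use, was detected in 35 of 40 ICM-like and 10 of 10 TE-like samples. Its level was -12.55, -1.99 and 0.96 in ICM-like and -0.75, -0.03 and 0.81 in TE-like samples, and 31 of 40 ICM-like samples lay below every TE-like sample. The difference was -2.84 ± 0.53 (adjusted p = 0.0437). With every sample as a unit, limma gave Fgfr2 an adjusted p of 0.0724.

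The other FGF and MAP kinase genes described here did not pass within the 4 embryos. Fgfr3, another FGF receptor, was detected in 14 of 40 ICM-like and 7 of 10 TE-like samples, with a difference of -3.33 ± 1.45 (SE, 4 embryos). Mapk3, a MAP kinase that relays the signal, differed by 1.14 ± 0.52 (adjusted p = 0.214, and 0.0388 in the limma fit of 7 embryos), with the median difference over all genes tested at 0.24.

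Elf5, an ETS factor that maintains trophoblast identity, was lower in ICM-like samples. It was detected in 14 of 40 ICM-like and 9 of 10 TE-like samples, with levels of -13.31, -11.59 and -3.18 against -11.98, -3.86 and -0.09. The difference was -5.32 ± 0.60 (SE, 4 embryos; adjusted p = 0.0135) and ran from -7.32 in embryo 8 to -4.25 in embryo 13. Embryo 13 stood apart in level, since Elf5 was detected in all 4 of its ICM-like samples (-5.16 to -3.64), still below its 2 TE-like samples (-0.44 and -0.09).

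The remaining placental factors did not pass within the 4 embryos. Hand1, a transcription factor of trophoblast giant cells, was detected in 17 of 40 ICM-like and 0 of 10 TE-like samples. Its level reached -1.53 in ICM-like samples, with a median of -10.76, and the difference was 4.68 ± 1.04 (SE, 4 embryos), with an adjusted p of 0.0713 within the 4 embryos and 0.00575 in the limma fit of 7. Detection was uneven over embryos, in 6 of 8 ICM-like samples of embryo 1 and 3 of 4 of embryo 13 but in 1 of 8 of embryo 8. Krt19, a keratin of epithelia, was detected in 11 of 40 and 7 of 10 samples and differed by -2.74 ± 1.58. Of the 4 TE and placental genes outside the score, 0 rose and 2, Elf5 and Fgfr2, fell in ICM-like samples. Over all genes tested, 4.29% were called in each direction. Hand1 had the sign opposite to its list.

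Promoter windows from RefSeq (build GRCm38.p6) show the sequence at the start of called genes with opposite directions. Windows of 300 bases around the annotated start were found for 10 of the 12 genes, and Scmh1 and Elf5 had more than 1 window. Tet1 is shown as the gene that separated the classes, Elf5 as the called gene with the lowest difference, and Creb3l2 as a gene higher in ICM-like samples that shares the motif with Elf5. Capitals mark GGAATG or its reverse complement CATTCC, the core of the motif that Tead factors bind. All 3 are written 5′ to 3′ on the strand of the gene.
Tet1, chr10:62887275-62887574, minus strand: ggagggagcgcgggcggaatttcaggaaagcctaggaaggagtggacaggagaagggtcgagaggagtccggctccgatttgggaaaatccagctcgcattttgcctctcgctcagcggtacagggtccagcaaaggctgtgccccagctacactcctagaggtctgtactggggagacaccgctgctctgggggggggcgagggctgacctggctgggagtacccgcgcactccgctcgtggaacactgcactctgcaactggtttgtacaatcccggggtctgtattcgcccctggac
Elf5, chr2:103411848-103412147, plus strand: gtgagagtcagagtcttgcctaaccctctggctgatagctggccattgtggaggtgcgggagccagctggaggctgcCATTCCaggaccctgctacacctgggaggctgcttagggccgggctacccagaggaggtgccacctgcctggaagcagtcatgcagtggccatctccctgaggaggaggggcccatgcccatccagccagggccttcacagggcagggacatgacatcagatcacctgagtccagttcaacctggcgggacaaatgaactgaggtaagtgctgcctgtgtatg
Creb3l2, chr6:37442099-37442398, minus strand: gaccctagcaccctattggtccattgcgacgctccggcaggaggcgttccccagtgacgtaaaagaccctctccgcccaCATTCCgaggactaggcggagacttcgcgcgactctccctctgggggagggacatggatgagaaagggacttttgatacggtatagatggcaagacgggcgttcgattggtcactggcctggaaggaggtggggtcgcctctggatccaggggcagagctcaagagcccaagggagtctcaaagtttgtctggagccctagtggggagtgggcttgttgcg
The motif was in 3 of the 12 windows of called genes, 1 each of Elf5, Creb3l2 and Scmh1, and in 14.7% of all 32851 windows, so it was found on both sides of the comparison. The Elf5 window shown held 3 CpG dinucleotides and its other window, without the motif, 10. The Tet1 and Creb3l2 windows held 17 each, and the median window 7.

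Among the epiblast and pluripotency genes outside the score, 1 of 5 rose and 0 fell, beside 4.29% called in each direction over all genes tested. The called gene was Prdm14. Nanog, the central epiblast factor, was detected in all 50 samples, with levels of -2.95, 1.24 and 3.57 in ICM-like and -2.58, -1.07 and 1.72 in TE-like samples. Its ranges overlapped widely, and the difference was 1.79 ± 0.64 (SE, 4 embryos; adjusted p = 0.151), from 0.01 in embryo 9 to 3.68 in embryo 8. Tbx3, a T-box factor of the pluripotency network, differed by 2.15 ± 0.58 (adjusted p = 0.0908). The study tied Tbx3 to core ICM genes by correlation on samples that include these, so its direction is not independent evidence. Zfp42 (Rex1), a zinc finger protein of pluripotent cells, and Dppa3 (Stella), a maternal factor that protects DNA methylation, differed by 0.50 ± 0.22 and 0.51 ± 0.30. All 5 had a positive difference in every one of the 4 embryos, where 48.6% of all genes tested had the same sign throughout. Their median was 1.79, beside 0.24 over all genes tested. Zfp42 and Dppa3 were negative with no normalization. In the fit of 7 embryos Prdm14, Nanog and Tbx3 passed, with adjusted p of 0.0327 for Nanog and 0.00575 for Tbx3 in limma.

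The primitive endoderm factors did not pass within the 4 embryos. Gata6 was detected in 39 of 40 ICM-like and 10 of 10 TE-like samples, with medians of 2.33 and 1.58, and differed by 0.19 ± 0.33 (SE, 4 embryos; adjusted p = 0.674). Sox17, which follows Gata6 in primitive endoderm precursors, was detected in 24 of 40 ICM-like and 1 of 10 TE-like samples, and differed by 6.26 ± 2.38 (adjusted p = 0.172, and 0.0183 in the limma fit of 7 embryos). Its ICM-like values spread from -14.94 through -3.93 to 3.17, and the embryos disagreed. The difference was 0.86 in embryo 1 and 1.26 in embryo 8, where Sox17 was detected in 1 and 4 of 8 ICM-like samples, and 11.124 in embryo 9 and 11.78 in embryo 13, where it was detected in 6 of 7 and 3 of 4. Over the 40 ICM-like samples, Spearman's rho was -0.32 between Nanog and Gata6, -0.37 between Nanog and Sox17, 0.40 between Gata6 and Sox17, and 0.30 between Nanog and Fgf4. These samples share embryos and control genes, and the coefficients are a description only.

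**Figure D3:**
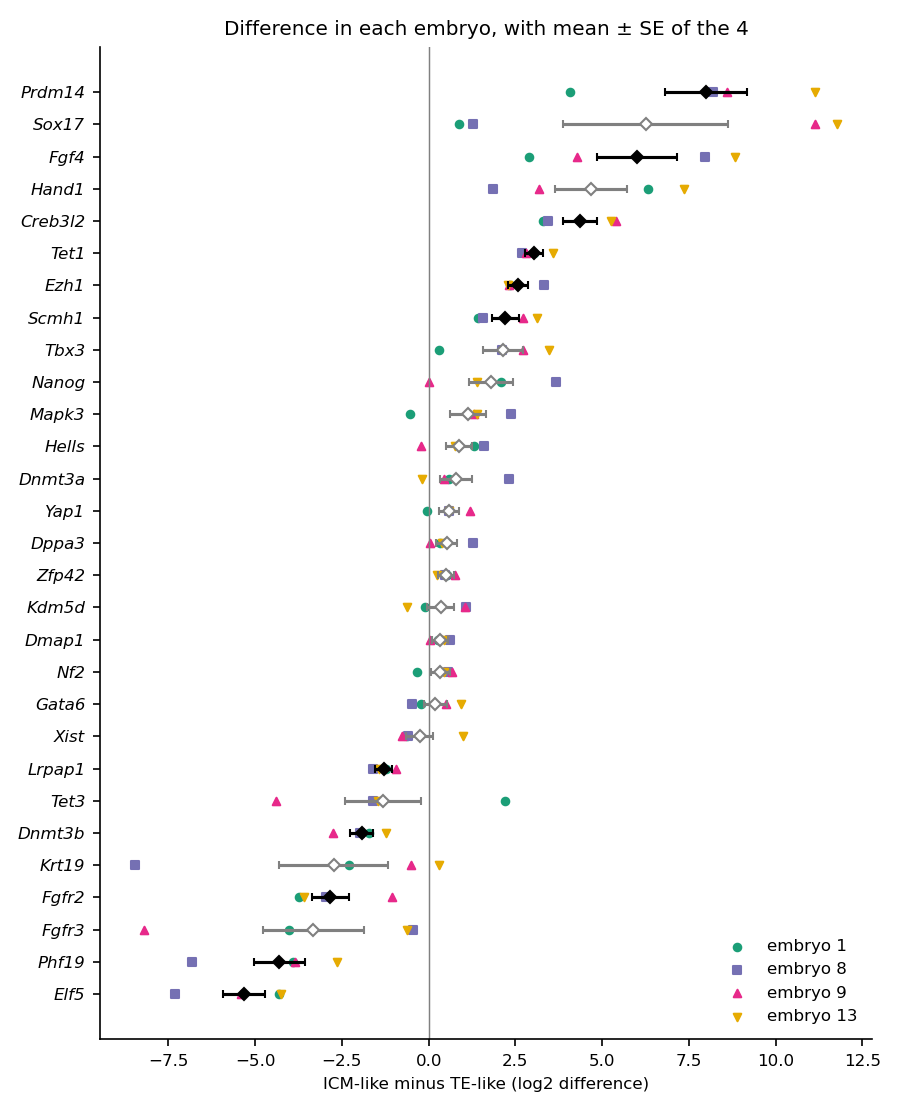
Difference between ICM-like and TE-like means (horizontal axis, log2) in embryos 1, 8, 9 and 13 for 29 named genes outside the score. Diamonds are the mean of the 4 embryos with its SE, filled black where the adjusted p was below 0.05. The embryos lie close together for Tet1 (2.68 to 3.60) and far apart for Sox17 (0.86 to 11.78), and the points of Xist in embryo 13 and of Kdm5d in embryos 1, 8 and 9 rest on undetected samples.

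The 6 DNA methylation genes held 1 that rose, Tet1, and 1 that fell, Dnmt3b, beside 4.29% called in each direction over all genes tested. The study tied Tet1 to ICM genes and gave Dnmt3b a moderate TE-like pattern on samples that include these. Their directions are therefore not independent evidence. Dnmt3b, a de novo DNA methyltransferase, was detected in all 50 samples, with levels of -1.78, 0.32 and 2.73 in ICM-like and 1.92, 2.33 and 3.47 in TE-like samples. Of the 40 ICM-like samples, 37 lay below every TE-like sample. The difference was -1.93 ± 0.33 (SE, 4 embryos; adjusted p = 0.0398), which puts the TE-like level 3.80-fold higher. Its paralogue Dnmt3a differed by 0.79 ± 0.47 and Tet3, the Tet enzyme stored in the oocyte, by -1.31 ± 1.09. Tet3 was undetected in some samples of both classes. Hells, a remodeller needed for DNA methylation, and Dmap1, a partner of Dnmt1, differed by 0.86 ± 0.38 and 0.34 ± 0.23. The 4 that were not called had adjusted p from 0.214 to 0.459, and of these Hells passed in the fit of 7 embryos (adjusted p = 0.0402).

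Of 7 PRC2 genes, Ezh1 rose and Phf19 fell in ICM-like samples, beside 8.57% called over all genes tested. Phf19, a Polycomb-like protein that binds H3K36me3, was detected in 15 of 40 ICM-like and 9 of 10 TE-like samples, with levels of -14.94, -11.39 and -2.37 against -11.98, -4.49 and -2.83. Its difference was -4.30 ± 0.73 (SE, 4 embryos; adjusted p = 0.0398). The core subunits were detected in every sample and did not pass. Ezh2, the main H3K27 methyltransferase, differed by 0.38 ± 0.24, Suz12 by 0.73 ± 0.32 and Eed by 0.90 ± 0.23 (adjusted p = 0.0856 for Eed). Mtf2, another Polycomb-like protein, had a difference of -1.11 ± 0.30. Eed and Mtf2 passed in the fit of 7 embryos, with adjusted p of 0.0311 and 0.00689 in limma. Of 12 genes of PRC1 and related Polycomb proteins, Scmh1 alone was called, a share near that of all genes tested, and the median of the 12 was 0.37.

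Lrpap1, a chaperone of LDL receptor family proteins, had levels of -0.59, 1.27 and 2.46 in ICM-like and 1.84, 2.52 and 3.28 in TE-like samples. Its difference of -1.30 ± 0.24 (adjusted p = 0.0429), or 2.46-fold, was the smallest of the 12.

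Among the 14 other chromatin lists of histone methyltransferases, demethylases, acetylation, chaperone, HP1, SMYD, PRDM and JmjC genes and the germline, neural and Hippo lists, 0 genes other than Prdm14 were called. Each of these lists held between 2 and 9 tested genes, and 8.57% of all genes tested were called. The gene nearest to a call in these lists was Kdm1b, an H3K4 demethylase of the oocyte, which was detected in 30 of 40 ICM-like and 10 of 10 TE-like samples. It differed by -3.18 ± 0.69 (SE, 4 embryos), with an adjusted p of 0.0681 within the 4 embryos, 0.0363 there with the floor at -10 and 0.00561 in the limma fit of 7. The study gave Kdm1b a moderate TE-like pattern on samples that include these, so its direction is not independent evidence. Kdm3a, an H3K9 demethylase, differed by 1.27 ± 0.29 and Smyd1, a SMYD methyltransferase known from muscle, by -4.08 ± 1.02, with adjusted p of 0.0217 and 0.0117 in the fit of 7 embryos. The 2 measured Hippo genes outside the score, Yap1 and Nf2, an upstream activator of the pathway, differed by 0.58 ± 0.29 and 0.33 ± 0.28. The study tied Yap1 to ICM markers by correlation on samples that include these. The 9 H3K4 methyltransferase complex genes had a median of 0.48 and the 8 genes of histone H3.3 and its chaperones one of -0.11. Of the germline transcripts, Brdt, a testis bromodomain protein, was detected in 29 of 40 ICM-like and 4 of 10 TE-like samples (5.03 ± 1.42; adjusted p = 0.0908, and 0.00689 in the fit of 7 embryos), ZP3, a zona pellucida protein of the oocyte, in 17 of 40 and 3 of 10, and Dazl, a germ cell RNA-binding protein, in 5 of 40 and 3 of 10. The control genes themselves differed by -0.19 ± 0.37 for Hnrnpr, 0.60 ± 0.36 for Ssu72 and -0.40 ± 0.22 for Ube2e1.

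The labelled groups gave a comparison outside the 50 samples, with 1 sample each and no test. The group labelled inner cell mass, from embryo 2, scored 0.46, and the group labelled trophectoderm, from embryo 7, scored -3.74. Both labelled groups had signal for nearly all genes, with 2 and 7 of 156 undetected and mean control Ct of 12.9 and 13.9. The inner cell mass group was high in TE genes as well, with 0.43 for Cdx2, 1.53 for Gata3 and -0.07 for Krt8, against 1.84, 2.73 and 1.00 in the trophectoderm group. Its level of Sox2 was -0.17 and of Esrrb 0.35, against -6.01 and -6.34. Of the 6 genes higher in ICM-like samples, 6 were also higher in the inner cell mass group, a direction shared by 68.6% of all genes tested. Of the 6 lower genes, 5 were lower there, as were 31.4% of all genes tested. The exception was Dnmt3b, at 1.13 in the inner cell mass group and 0.61 in the trophectoderm group. Tet1 differed by 1.71, Ezh1 by 1.57 and Scmh1 by 2.61. Hand1 was at -3.66 in the inner cell mass group and undetected in the trophectoderm group, and so was Sox17, at -3.94.

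The same score rule was applied to 16-cell embryos, the stage before, as a description. Embryo 4 gave 6 ICM-like and 6 TE-like samples with 1 between, and embryo 5 gave 4 and 5 with 4 between. Of the 6 genes higher in ICM-like 32-cell samples, 5 were above TE-like samples in both 16-cell embryos, as were 47.1% of all genes tested. The exception was Creb3l2, at -1.82 in embryo 4 and 2.65 in embryo 5. Tet1 differed by 0.93 and 2.49, Ezh1 by 0.50 and 1.59, Scmh1 by 1.06 and 1.46, Prdm14 by 5.00 and 10.68 and Fgf4 by 2.45 and 2.72. Of the 6 lower genes, 3 were below in both embryos, beside 16.4% of all genes tested, with Fgfr2 at -0.77 and -1.62 and Dnmt3b at -0.29 and -0.27. Elf5 and Phf19 had the opposite sign at this stage, with 1.76 and 2.45 for Elf5 and 0.17 and 6.99 for Phf19, and Lrpap1 lay at 0.07 and -0.44. Detection in the 16-cell samples is not given here, so the part of undetected samples in these differences is not known.

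**Figure D4:**
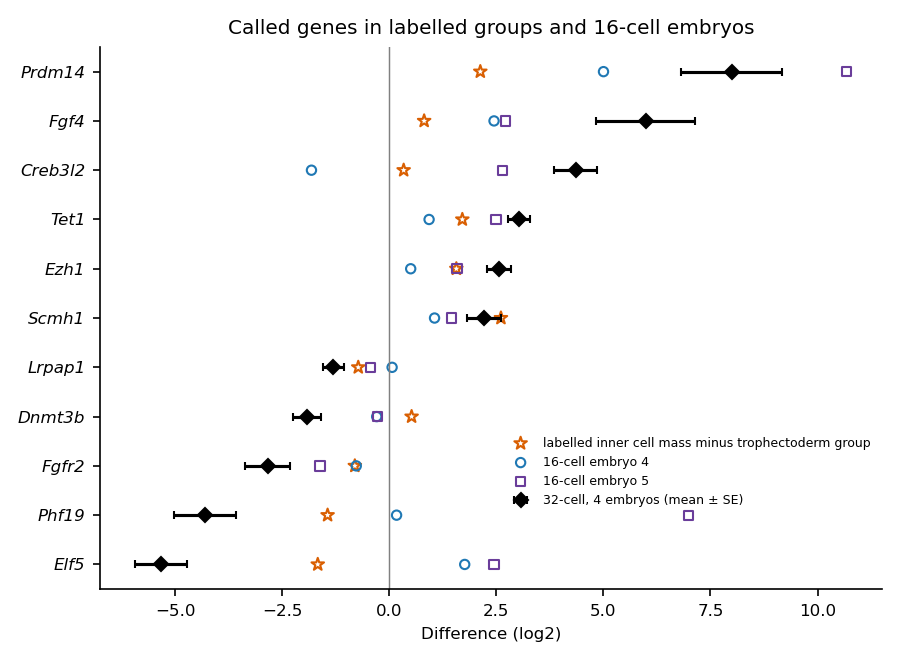
Difference (horizontal axis, log2) of 11 of the 12 called genes between ICM-like and TE-like samples of 32-cell embryos (diamonds, mean and SE of 4 embryos) and of 16-cell embryos 4 and 5, and between the labelled inner cell mass and trophectoderm groups (1 sample each). Tet1, Ezh1, Scmh1, Prdm14 and Fgf4 lie above 0 throughout, and Elf5 lies at -5.32 in 32-cell embryos but at 1.76 and 2.45 in the 16-cell embryos. Detection in the 16-cell samples is not shown.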

How the data were processed

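Single blastomeres or groups were lysed into the reaction, amplified for the 192 targets and measured on BioMark chips. The authors deposited Ct values (a score of PCR cycles, undetected genes at 30), and a log2 table that the values show to be relative to Gapdh, Hspa8 and Lmnb1. The main values were computed from the deposited Ct relative to Hnrnpr, Ssu72 and Ube2e1, as the methods state. Melting curve filtering was the authors' own, and the assignment of samples to chips is not given in the sources used here. Of 192 assays, 36 marked as failed were left out. No read depth exists for qPCR, and the control Ct stands for sensitivity. The samples of a class in 1 embryo come from the same animal, so the embryo was the unit and pairs the classes. Class means per embryo were fitted with limma 3.58.1 (lmFit, eBayes; R 4.3.3) with the embryo as a block, threshold 0.05 after Benjamini-Hochberg adjustment over 140 genes. Tables were made with Python 3.11.15, pandas 2.3.3 and numpy 2.4.6, and the fit was tested on simulated data. The labelled groups and 16-cell embryos were not tested. Members and lists were chosen with earlier results of these data known. Named genes were up to 15 called genes per direction, all genes of the first 6 lists, Ezh1, Scmh1, Xist and Kdm5d, with other list members as examples. Alternatives covered the block, the unit, thresholds, the 12-gene ICM score, a floor at -10, a detection filter, control genes, normalization and leaving out samples or embryos. Results of some genes measured are not reported here.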

Additional observations from a re-analysis of the deposited data

Results flagged for a closer look

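Values that stood apart from the others of their group by Dixon's criterion came to 9 among 62 groups of 4 or 10 values tested. Chance gives about 1 in 20 for independent, normally distributed values. The groups here share samples, and some hold undetected values set by the controls, so that rate is not a background for the 9. Blastomere 3 of embryo 1, the TE-like sample with the score nearest the threshold, accounted for 4 of them. It was the highest TE-like sample for Prdm14 (-3.84) and for Fgf4 (-3.66), the only TE-like sample in which either was detected, and the lowest for Elf5 and Phf19 (both -11.98, undetected). It also had signal for Sox2 (-3.96) and Pdgfra (-3.54) beside Cdx2 (0.55) and Gata3 (1.40). Without this sample, an alternative chosen after seeing the data, limma called 14 genes, including all 12, with differences of 8.55 for Prdm14, 6.56 for Fgf4, -5.80 for Elf5 and -4.75 for Phf19.

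Among TE-like samples, Creb3l2 was highest in blastomere 9 of embryo 1 (-9.27), Sox17 was highest in blastomere 9 of embryo 8 (-5.34), the only TE-like sample in which it was detected, and Dnmt3a was lowest in blastomere 10 of embryo 8 (-6.5997). Among the differences of the 4 embryos, that of Ezh1 in embryo 8 (3.33) and that of Xist in embryo 13 (0.99), where Xist was undetected in every sample and the value reflects the controls alone, stood apart.

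Elf5 and Phf19 differed in opposite directions at the 2 stages. Every 32-cell embryo with both classes had a negative difference for both genes, and both 16-cell embryos a positive one, with means of 2.10 for Elf5 and 3.58 for Phf19. The difference between stages was not tested, and the number of 16-cell samples with signal for these genes is not given.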

How the results depend on the processing

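All 12 called genes kept their direction under every alternative run. The count of called genes stayed within 1.5 times the main 12 with no replicate block, so without the paired design (12, of which 10 were among the main calls), with thresholds of 4 and -4 (8), thresholds of 0 and 0 or a 12-gene ICM score (12 each, with the same classes), a floor at -10 (13), the detection filter (12 of 128 genes), without Hnrnpr (12) or Ube2e1 (10), with median normalization (12), no normalization (16) and the deposited log2 table (14). It was 46 with all 7 embryos as random blocks, 40 with every sample as a unit, 43 when the floor was added to that fit after seeing the data, 0 with single blastomeres (2 embryos), 7 with the 2 samples left out by the rule added (control Ct of 22.7 and 20.9), 5 without Ssu72, and 0 to 8 leaving out 1 embryo (0 without embryo 1, 9 or 13). Of the 8 genes called without embryo 8, 5 were among the main calls. Leaving out the 4 ICM-like samples of embryo 9 with the highest TE genes, chosen after seeing the data, gave 8 and the same sample set as thresholds of 4 and -4. Splits of higher against lower were 6 and 6 in the main fit, 8 and 4 with no replicate block, 7 and 5 without Hnrnpr, 4 and 1 without Ssu72, 4 and 6 without Ube2e1, 4 and 8 with median normalization, 5 and 11 with no normalization and 6 and 8 with the deposited table. The median difference over all genes moved with scaling, from 0.24 to 0.54 without Ssu72, 0.04 without Ube2e1, -0.05 with median normalization, -0.02 with the deposited table and -0.51 with no normalization.

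The reversals were all among genes that were not called. With no normalization, Zfp42 was -0.25, Dppa3 -0.23, Yap1 -0.17, Nf2 -0.42, Dmap1 -0.41, Gata6 -0.56 and Kdm5d -0.40. Gata6 was also -0.75 with single blastomeres, -0.061 with the 2 samples added, -0.013 without Ube2e1, -0.10 with median normalization, -0.067 with the deposited table and -0.059 to 0.41 leaving out 1 embryo (lowest without embryo 13). Kdm5d was -0.20 with the 2 samples added, -0.16 with the floor and -0.12 with every sample as a unit and the floor. Nf2 was -0.0099 and Tet3 0.94 with single blastomeres, and Xist was 0.046 without Ssu72. The cause was not tested. Precision is limited by 4 embryos with both classes.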

Other observations

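The 2 blastomere samples left out by the rule had the weakest control signal of the 52, with mean control Ct of 22.7 and 20.9 and 39 and 43 of 156 genes undetected. Their scores were -8.59 (embryo 9) and 9.52 (embryo 11).

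The 4 ICM-like samples of embryo 9 with high TE genes also had signal for genes lower in ICM-like samples. Phf19 was detected in 4 of 4 (-5.87 to -3.51) against 11 of the other 36 ICM-like samples, and Elf5 in 3 of 4 against 11 of 36. Tet1 in these 4 samples lay between -1.05 and -0.30, within the range of the other ICM-like samples (-2.14 to 0.87), and Ezh1 between 0.59 and 1.72.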
